A study of Mus musculus with 17 samples.

Results

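The genes described here are those whose mRNA was highest at 12 h, above both the start and the 24 h time point, in 2 mouse ES cell lines taken from 2i/LIF into serum. Levels are given as CPM, a gene's reads brought to one common library size after scaling of the libraries to each other. Genes were chosen by their measured levels: a gene was taken when the log2(CPM + 1) of its group mean at 12 h was at least 0.3 above that at 0 h and at least 0.3 above that at 24 h in both lines, with a 12 h mean of at least 5 CPM in both. Names beginning with Hox, Slc, Rpl or Rps were left out, which removed 4 genes. This left 73 genes of the 15470 in the table, all of them among the 15117 genes tested. Because these levels chose the genes, the rise to 12 h and the fall after it are given as a description without a test.

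The lines were *Nanog* KO ES cells (BT12), in which *Nanog* is disrupted, and E14Tg2a, the wild-type line they were made from, called control. Each is a single line, so the genotype and the line cannot be told apart. At 0 h both were in Knockout serum replacement with LIF and the 2i inhibitors CHIR-99021 and PD0325901, over inactivated mouse embryonic fibroblasts, and at 12 and 24 h both had been in serum. Each line and time had 3 libraries, but of the control at 0 h only replicates 2 and 3, which makes 2, were analyzed. Nothing in the labels or methods says that replicates came from separate cultures. The p-values therefore measure the spread between these libraries only, and that spread may be technical. It was also unequal. Measured against counting error (chi-square per gene), pairs of replicates gave 7.30 to 14.5 at 24 h and 12.0 in the control at 0 h. The other groups gave 2.51 to 4.79. The test shares a single spread per gene over all groups, so p-values that involve 24 h or the control at 0 h may be too small. Depth was 8775372 to 33766086 reads per library (median 19777267), and 3 reads, the upper limit for a gene without any read, came to between 0.0851 and 0.326 CPM (a limit that covers counting error and nothing else). The targeted gene was at 12.5 to 34.6 CPM in the *Nanog* KO libraries and at 271 to 412 CPM in the control libraries. The 8 ES cell markers looked at, such as *Pou5f1* and *Sox2*, summed to 3442 to 4715 CPM over the 17 libraries, with none under 1 CPM in the mean of any group. The 12 markers of feeder fibroblasts summed to 884 to 993, 519 to 675 and 232 to 312 CPM in *Nanog* KO at 0, 12 and 24 h, and to 1041 to 1200, 1036 to 1115 and 642 to 749 CPM in control cells, with only *Twist2* under 1 CPM in any group. The 6 markers of primitive endoderm summed to 173 to 407 CPM in *Nanog* KO and to 23.1 to 31.0 CPM in control libraries, with *Sox7* under 1 CPM in the control at 0 h. The part of these cells in the results was not tested.

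2i holds ES cells in the naïve state by blocking MEK, the kinase that activates ERK, and GSK3, which marks β-catenin for destruction. When the inhibitors and LIF are withdrawn and serum is added, ERK signaling returns, growth factors and lipids of serum reach the cells, and the naïve program is taken down while genes of the formative and primed epiblast come on. A gene that is high only in between has a pulse. Its mRNA level rises in the first phase and falls later, and the levels do not show whether making or decay of the mRNA changed. In bulk RNA, fewer cells of a type and less RNA per cell cannot be told apart, so a pulse can come from every cell or from some of them.

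The 12 h libraries stood clear of the others for most of these genes. In 65 of the 73 every 12 h library was above every 0 h and 24 h library of its line, in both lines, where 2.95% of all tested genes had this order. Since group means chose the genes, that count is a description. Among the exceptions were *Cpm*, *Gpr126*, *Gm5580*, *Stat4*, *Plac9b*, *Tmem254c* and ENSMUSG00000101678. The pulses were mostly small. Taking the smallest of the 4 differences as the size of a peak, the median was 0.37, 48 genes were under 0.4 and 10 were at 0.5 or more. The median rise was 0.53 in *Nanog* KO and 0.67 in control cells (log2), and the median fall was 0.43 and 0.49. A rise of at least 1 in both lines was seen in 6 genes.

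**Figure D1:**
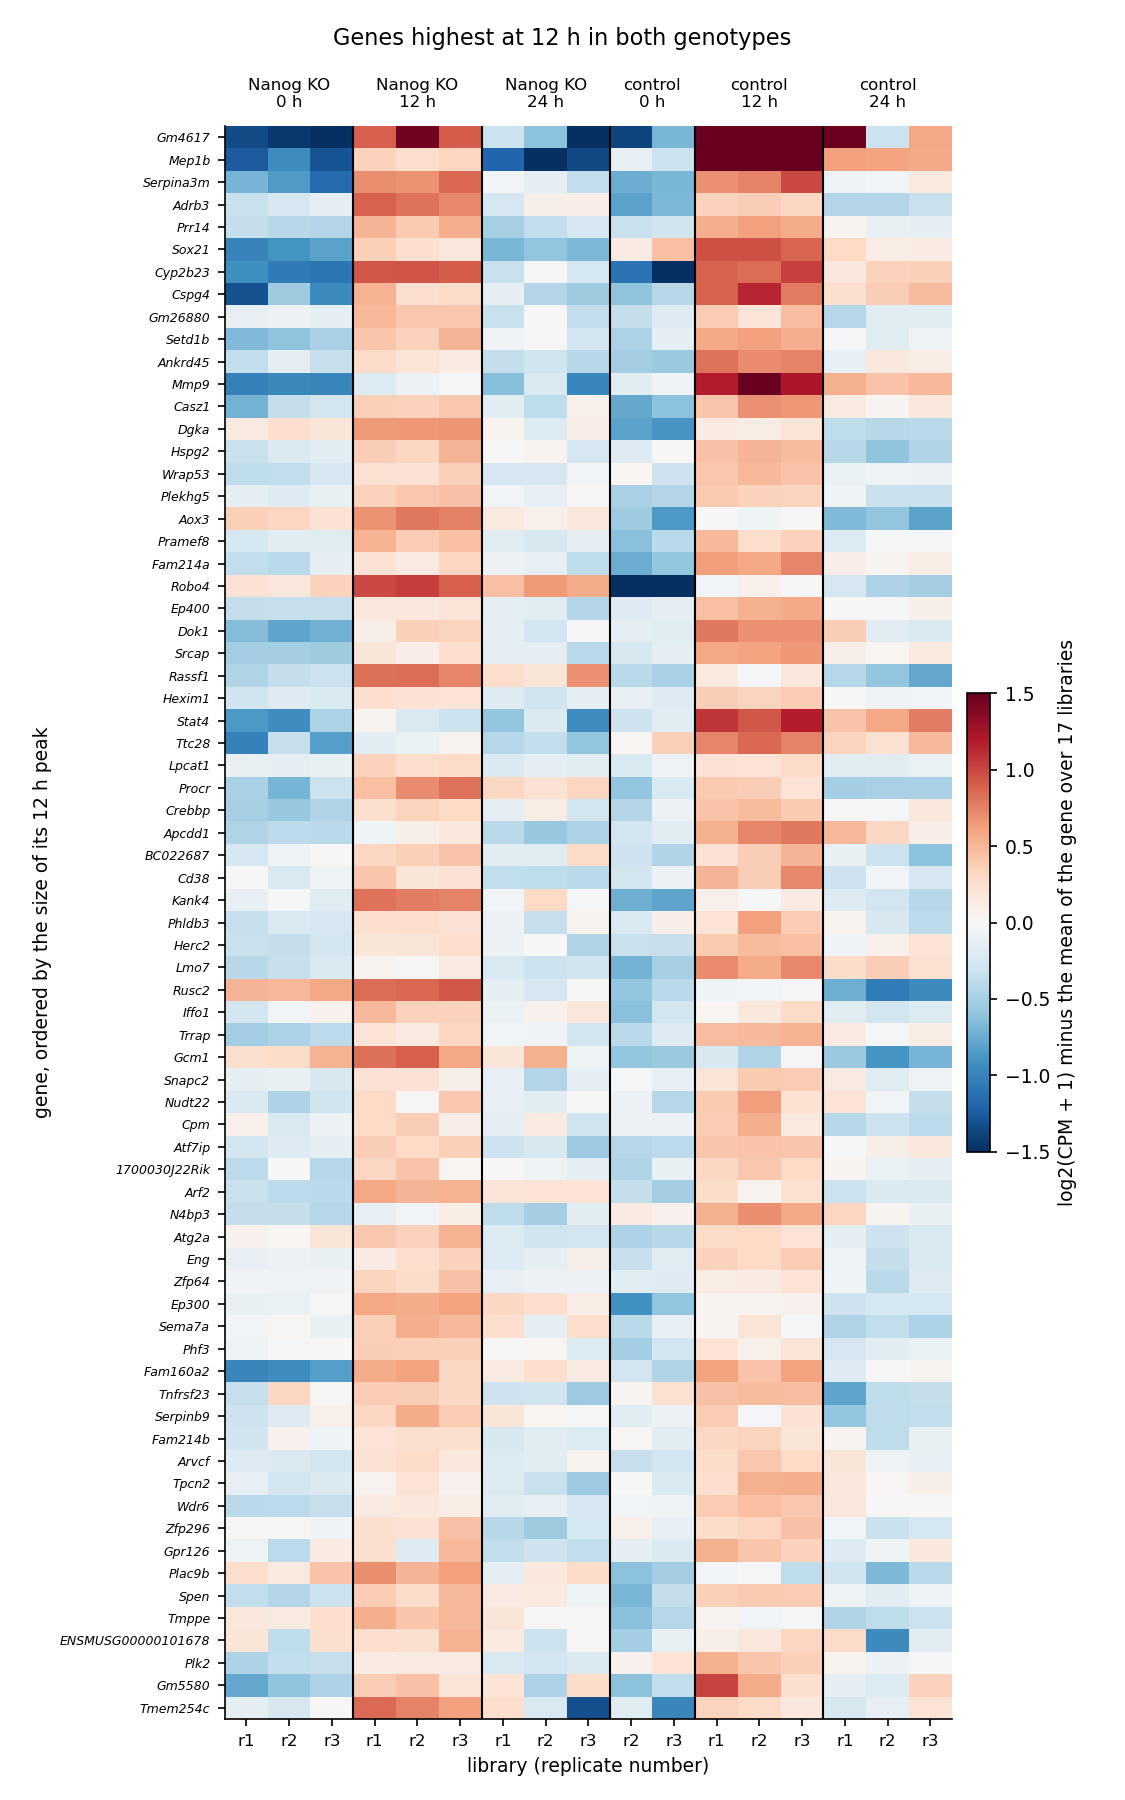
Each row is 1 of 71 of the 73 genes, ordered by the size of its peak, and each column 1 of the 17 libraries. Color is log2(CPM + 1) minus the mean of the gene over the 17 libraries, and values beyond the ends of the scale take its end color. The 12 h columns are the reddest of each line for nearly all genes, while genes such as *Mep1b* and *Robo4* also differ between the lines.

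Few of the tested genes peaked at 12 h in each line, and some of these were shared. By the same limits, 242 of the 15117 tested genes peaked in *Nanog* KO and 318 in control cells. Before names were left out, 77 peaked in both, which is 0.509% of all tested genes, 31.8% of the first set and 24.2% of the second. The number of genes that sets of this size would share in unrelated lines was not worked out. These shares are therefore not read as high or low agreement. The overlap was not tested. The converse pattern, a dip at 12 h of the same size in both lines, was found in 74 genes. Across the 73 genes the rise in *Nanog* KO cells went with that in control cells, with Pearson's r of 0.779 and Spearman's rho of 0.647, and the fall less so, with 0.671 and 0.316. These are descriptions over 73 genes of the same libraries, which are not independent, and the limits of the rule bound both axes. The rise was larger in control cells for 48 genes and larger in *Nanog* KO cells for 25, while the fall was larger in control cells for 37 and in *Nanog* KO cells for 36.

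**Figure D2:**
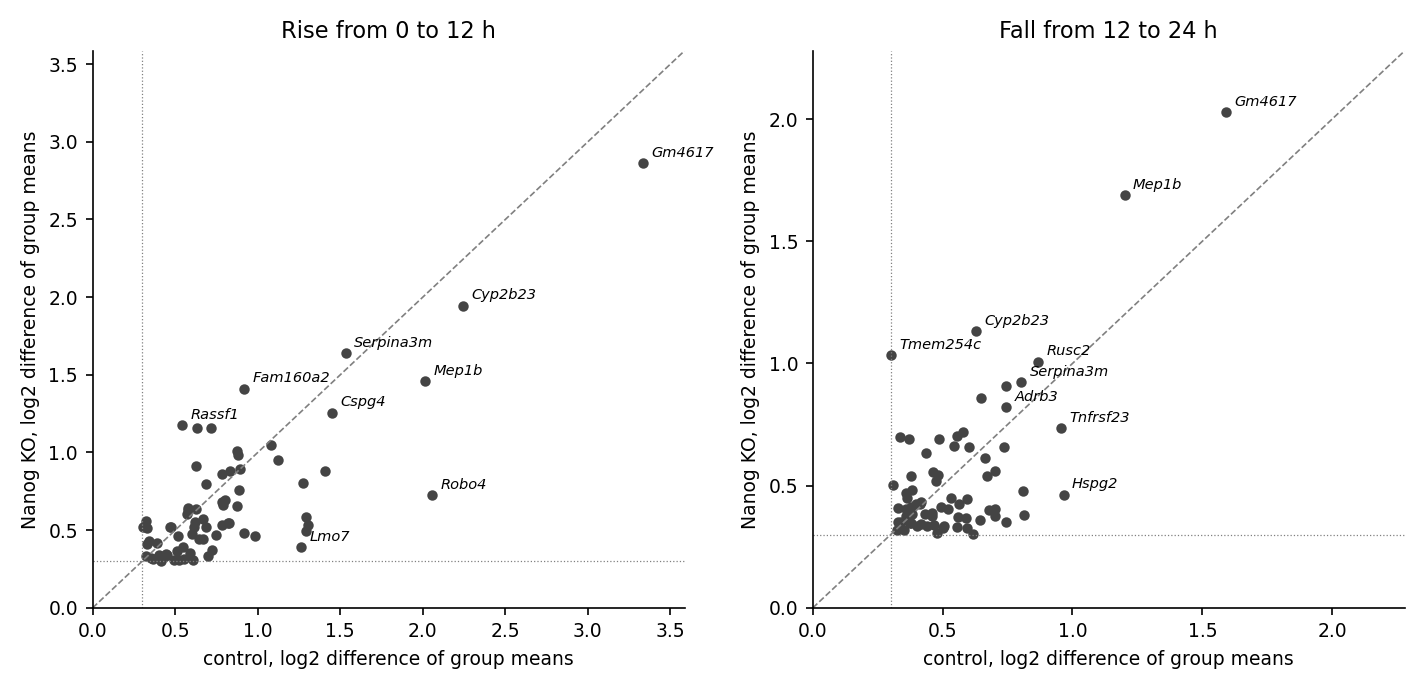
Each point is 1 of the 73 genes. The left panel sets the rise from 0 to 12 h in *Nanog* KO cells against that in control cells, and the right panel the fall from 12 to 24 h, all as log2 differences of group means of CPM + 1. Dotted lines mark the limit of the rule and the dashed line equal values. *Robo4* and *Lmo7* rose more in control cells (2.06 against 0.73 and 1.26 against 0.39), and *Rassf1* rose more in *Nanog* KO cells (1.18 against 0.54).

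The 37 gene lists on signaling, lineage, chromatin, metabolism and growth hold 1083 of the tested genes, of which 2 were members (0.185%), against 0.483% of all tested genes. *Sox21* was on the list of neural progenitor genes (1 of 21 tested) and *Plk2* on that of p53 targets (1 of 25 tested). At that share a list of this size would hold a member only now and then, so that an empty list says little. Without the limit on size, 13.8% of all tested genes had a 12 h mean above both other times in both lines. That order was found in 8 of 25 p53 targets, 4 of 13 genes around MYC and MAX, 4 of 11 genes of 2-cell-like cells, 6 of 29 naïve genes and 7 of 45 chromatin genes, and in 5 of 42 Wnt, 3 of 26 ERK feedback, 2 of 25 formative and none of 28 immediate early genes. By what their proteins do, 16 of the 73 genes were sorted as receptors, matrix and secreted proteins, 7 as transcription factors, 10 as transcription coregulators, 6 as signaling proteins inside the cell and 3 as metabolic enzymes. This sorting was made with the values known, and 31 genes were given to none of these groups.

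The promoters of 4 members with a clear pulse are shown because they differ in CpG, with 21 in *Hexim1*, 12 in *Prr14* and 2 each in *Cyp2b23* and *Robo4* (1 to 54 over the members, median 19). They run from 250 bases before to 50 bases after the RefSeq start site (GRCm38.p6), 5′ to 3′ of the gene. Capitals mark CCAAT, in either direction, and in *Hexim1* also GCGCATG, the core of the NRF1 motif, found there in both directions with an overlap, and in *Hexim1* and *Robo4* CAGACA, a SMAD motif, in either direction. The start used for *Prr14* lies inside the longer gene of the other annotation used here, GENCODE M21.
Prr14, chr7:127471364-127471663, plus strand: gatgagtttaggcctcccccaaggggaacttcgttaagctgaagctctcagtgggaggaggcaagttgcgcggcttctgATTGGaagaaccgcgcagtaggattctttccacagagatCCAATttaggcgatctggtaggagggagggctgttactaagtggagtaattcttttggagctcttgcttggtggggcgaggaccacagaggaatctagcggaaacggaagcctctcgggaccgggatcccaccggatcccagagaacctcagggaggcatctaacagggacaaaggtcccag
Hexim1, chr11:103116075-103116374, plus strand: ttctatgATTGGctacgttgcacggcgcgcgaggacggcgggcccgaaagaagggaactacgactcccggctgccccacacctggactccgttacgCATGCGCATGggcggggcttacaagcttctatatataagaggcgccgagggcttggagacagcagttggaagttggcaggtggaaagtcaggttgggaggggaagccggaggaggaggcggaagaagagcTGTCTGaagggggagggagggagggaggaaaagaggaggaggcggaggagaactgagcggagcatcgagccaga
Cyp2b23, chr7:26686381-26686680, minus strand: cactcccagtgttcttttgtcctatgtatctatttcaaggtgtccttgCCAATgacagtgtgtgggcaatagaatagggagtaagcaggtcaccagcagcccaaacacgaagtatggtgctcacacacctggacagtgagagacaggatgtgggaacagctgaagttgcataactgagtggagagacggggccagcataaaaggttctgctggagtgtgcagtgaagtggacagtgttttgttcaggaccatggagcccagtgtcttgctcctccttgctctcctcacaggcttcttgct
Robo4, chr9:37401722-37402021, plus strand: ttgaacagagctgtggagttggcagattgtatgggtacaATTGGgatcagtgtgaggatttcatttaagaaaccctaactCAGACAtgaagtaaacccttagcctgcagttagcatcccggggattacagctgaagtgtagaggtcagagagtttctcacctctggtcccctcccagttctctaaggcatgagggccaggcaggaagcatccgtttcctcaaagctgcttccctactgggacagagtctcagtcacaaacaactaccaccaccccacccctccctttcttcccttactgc

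RefSeq promoters were found for 53 of the 73 genes and for 10670 of the tested genes, 7773 of which had at least 5 CPM at 12 h in both lines. The letters of 11 motifs were searched on both strands in these 300 bases, with every start of a gene counted, and no motif was held by most of the members. CCAAT was found in 22 of 53 (41.5%), against 43.5% of the 7773 expressed genes and 43.2% of all tested genes, and in *Prr14* it lies at -171 and -132 from the start. TGACG, the short site of CREB, was found in 19 (35.8%, against 37.5% and 34.1%). It lies within the full site TGACGTCA, which was found in 1, *Plk2* (1.89%, against 3.99% and 3.49%). CACGTG, the E-box bound by MYC, was found in 6 (11.3%, against 12.7% and 11.6%), CAGACA in 7 (13.2%, against 18.0% and 19.1%), GGAATG, bound by TEAD, in 5 (9.43%, against 14.02% and 14.8%), and GCGCATG in 4 (7.55%, against 9.16% and 7.81%). CCGGAAG, bound by ETS factors, was found in 5 (9.43%, against 22.6% and 18.8%). TGAGTCA or TGACTCA, bound by AP-1, and TATAAA were found in 2 each (3.77%, against 4.08% and 4.53% for the first and 7.81% and 8.93% for the second). TTCGCGC, bound by E2F, was found in none, against 3.95% and 3.43%. The median CpG count in 300 bases was 19 in the members, 22 in the expressed genes and 20 in all tested genes, and 5 members (9.43%, against 2.88% and 6.58%) had fewer than 5, namely *Cd38*, *Gcm1*, *Cyp2b23*, *Robo4* and *Stat4*. A match is a run of letters and not a bound site, and these shares were not tested.

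The receptors, matrix and secreted proteins held several of the steepest pulses. *Serpina3m* encodes a serpin, an inhibitor of serine proteases, and lies on chromosome 12 from 104338486 to 104394257 (GRCm38). *Serpina3k* and the pseudogene *Serpina3l-ps*, which are not in the table, overlap it on the same strand. Whether reads of theirs were counted for *Serpina3m* was not tested. In *Nanog* KO cells the libraries of *Serpina3m* read 1.46, 1.22 and 0.788 CPM at 0 h, 5.47, 5.39 and 6.26 CPM at 12 h and 2.90, 2.63 and 2.09 CPM at 24 h. In control cells they read 1.38 and 1.48 CPM, then 5.42, 5.71 and 6.95 CPM, then 2.79, 2.88 and 3.41 CPM. The 12 h libraries did not overlap those of either other time, and the levels of the lines overlapped at each time. The difference between the lines at 12 h was a log2 fold change of -0.06 ± 0.14 (SE), with an adjusted p of 0.73 (limma on log2(CPM + 1), Benjamini-Hochberg over the 15117 tested genes, the test used throughout).

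*Mep1b* encodes the beta subunit of the secreted and membrane-bound metalloprotease meprin (chromosome 18 from 21061923 to 21100199). This gene also peaked at 12 h in both lines, but at different heights and with a different change from 0 to 24 h. It read 2.604, 3.50 and 2.49 CPM at 0 h, 9.91, 9.27 and 9.76 CPM at 12 h and 2.77, 1.78 and 2.37 CPM at 24 h in *Nanog* KO cells. The control gave 6.89 and 5.86 CPM, then 28.9, 25.8 and 31.8 CPM, then 12.1, 12.0 and 11.8 CPM. The *Nanog* KO libraries were below the control libraries at every time, by -1.48 ± 0.12 at 12 h (adjusted p = 1.0e-08) and -1.99 ± 0.12 at 24 h (adjusted p = 2.0e-10). *Mmp9*, the gelatinase that degrades basement membrane collagen, was also below the control, at 44.4, 48.2 and 50.7 CPM at 12 h against 118, 145 and 120 CPM. Its difference was -0.88 ± 0.14 at 0 h, -1.40 ± 0.12 at 12 h and -1.10 ± 0.12 at 24 h (adjusted p = 3.1e-05, 2.9e-08 and 6.9e-07).

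*Adrb3*, the β-adrenergic receptor through which catecholamines act on fat cells, read 15.7, 16.8 and 18.3 CPM at 0 h, 38.1, 36.3 and 33.9 CPM at 12 h and 16.8, 21.6 and 21.6 CPM at 24 h in *Nanog* KO cells. The control libraries read 11.1 and 12.3 CPM, then 26.0, 26.3 and 25.3 CPM, then 14.7, 14.7 and 15.8 CPM. Its 12 h level was thus about the same multiple of the others in each line (a rise of 1.05 and 1.08), with a higher level in *Nanog* KO cells (0.46 ± 0.09 at 12 h, adjusted p = 0.00024).

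*Robo4*, a roundabout receptor known from blood vessels, was the member with the largest difference between the lines at 0 h (chromosome 9 from 37401897 to 37415115). It read 11.1, 10.7 and 12.2 CPM at 0 h, 19.6, 20.4 and 18.3 CPM at 12 h and 13.2, 15.2 and 14.2 CPM at 24 h in *Nanog* KO cells. In the control it read 1.58 and 1.44 CPM, then 9.08, 9.95 and 9.34 CPM, then 7.71, 6.56 and 6.27 CPM. The lines did not overlap at any time, and the difference was 2.30 ± 0.10 at 0 h, 0.97 ± 0.09 at 12 h and 0.96 ± 0.09 at 24 h (adjusted p = 2.6e-12, 6.9e-08 and 8.4e-08). Of the matrix proteins, *Hspg2*, which encodes the basement membrane proteoglycan perlecan, fell by 0.46 in *Nanog* KO and by 0.97 in control cells. It read 424, 407 and 468 CPM at 12 h and 326, 339 and 276 CPM at 24 h in *Nanog* KO cells, and 446, 469 and 458 CPM and then 246, 215 and 241 CPM in control cells. *Cspg4*, the NG2 proteoglycan, rose by 1.26 in *Nanog* KO and 1.45 in control cells and fell by 0.72 and 0.58. Other members of the group were *Procr*, *Eng*, *Sema7a*, *Apcdd1*, *Tnfrsf23*, *Gpr126*, *Cd38* and *Cpm*, with peaks of 0.31 to 0.38.

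**Figure D3:**
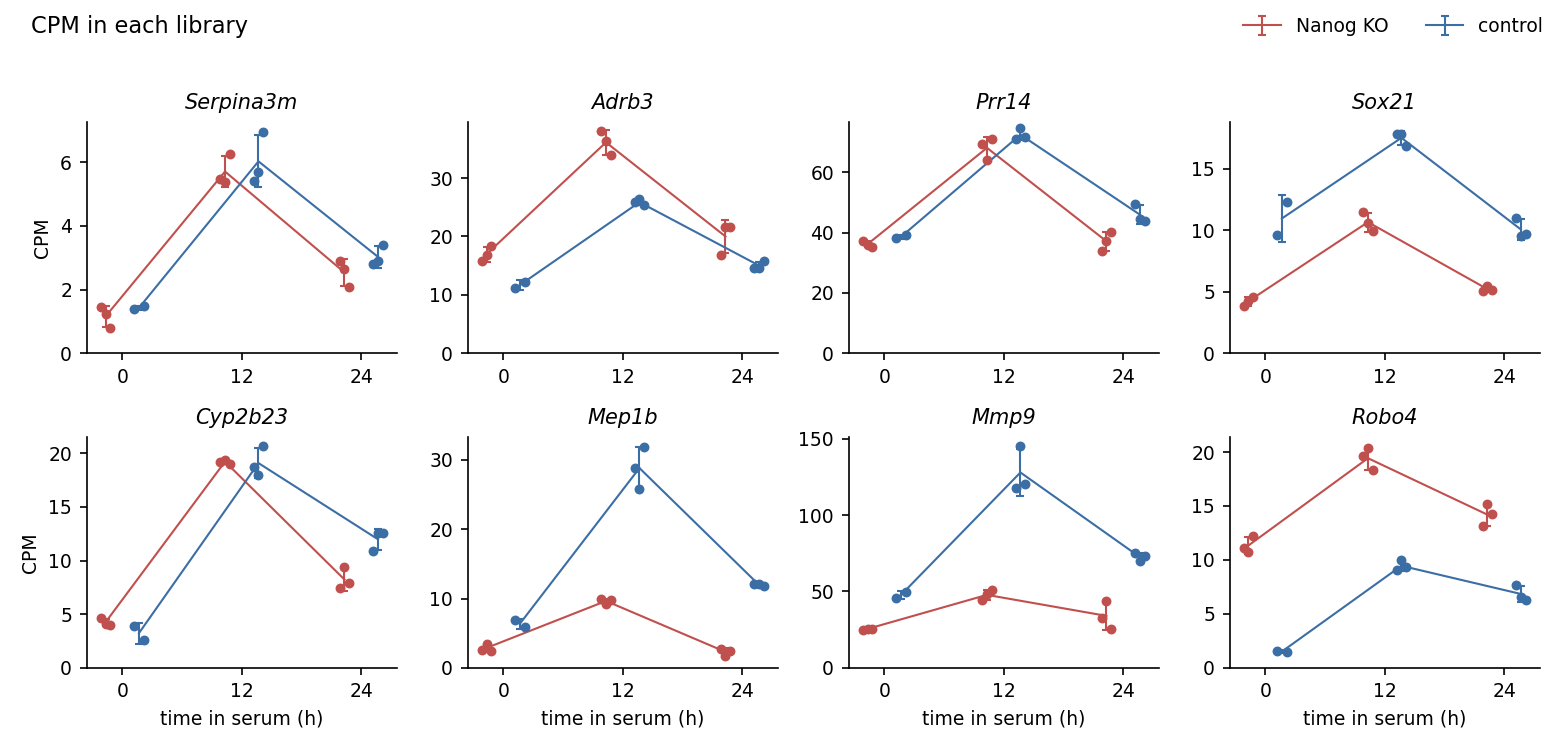
CPM by time in serum for 8 genes, in *Nanog* KO (red) and control cells (blue). Points are libraries, lines join the group means and bars are the SD (n = 3, and n = 2 for the control at 0 h). All axes start at 0. The 12 h points lie above the 0 h and 24 h points in both lines for the 8 genes, and *Mep1b*, *Mmp9* and *Robo4* differ in height between the lines.

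Other genes with steep pulses act inside the cell. *Cyp2b23* encodes a cytochrome P450 of the drug and steroid metabolizing CYP2B family (chromosome 7 from 26665227 to 26686437). It read 4.63, 4.09 and 4.03 CPM at 0 h, 19.2, 19.4 and 19.0 CPM at 12 h and 7.42, 9.40 and 7.87 CPM at 24 h in *Nanog* KO cells, and 3.93 and 2.55 CPM, then 18.7, 17.9 and 20.6 CPM, then 10.8, 12.5 and 12.6 CPM in control cells. The libraries of the lines overlapped at 12 h and not at 24 h, where *Nanog* KO cells were lower by -0.50 ± 0.11 (adjusted p = 0.0015). *Prr14*, which encodes a protein that ties heterochromatin to the nuclear lamina, read 37.3, 35.8 and 35.3 CPM at 0 h, 69.3, 63.9 and 71.1 CPM at 12 h and 34.0, 37.2 and 40.2 CPM at 24 h in *Nanog* KO cells. Control cells gave 38.0 and 39.1 CPM, then 71.0, 74.6 and 71.7 CPM, then 49.5, 44.6 and 43.7 CPM. In *Nanog* KO cells its 0 h and 24 h libraries overlapped, and the lines differed by -0.09 ± 0.06 at 12 h (adjusted p = 0.26). *Aox3*, an aldehyde oxidase, and *Lpcat1*, which remodels phosphatidylcholine, peaked by 0.44 and 0.38.

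*Sox21*, a SoxB2 factor that counteracts SOX2 and its relatives in neural progenitors, led the transcription factors. It read 3.85, 4.25 and 4.596 CPM at 0 h, 11.5, 10.6 and 9.92 CPM at 12 h and 5.05, 5.46 and 5.12 CPM at 24 h in *Nanog* KO cells. The control read 9.58 and 12.3 CPM, then 17.8, 17.9 and 16.8 CPM, then 11.002, 9.52 and 9.65 CPM, with 0 h and 24 h overlapping. The *Nanog* KO libraries were below the control libraries at each time, by -1.19 ± 0.11, -0.67 ± 0.10 and -0.83 ± 0.10 (adjusted p = 4.5e-08, 1.7e-05 and 1.4e-06). *Casz1*, a zinc finger factor of heart and retina, rose by 0.81 in *Nanog* KO and 1.27 in control cells and fell by 0.52 and 0.48. *Gcm1*, a factor of labyrinthine trophoblast, was the highest above the control at 12 h (1.004 ± 0.15, adjusted p = 1.8e-05) and *Stat4*, which carries interleukin 12 signals in lymphocytes, was among the lowest (-1.23 ± 0.16, adjusted p = 5.0e-06). Both were low, at 11.2 against 5.12 CPM and at 5.60 against 14.4 CPM at 12 h. *Zfp64*, *Zfp296* and *Snapc2*, a subunit of the complex that starts small nuclear RNA genes, had peaks of 0.31 to 0.34.

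Transcription coregulators formed a group of 10 with the same course. Their median rise was 0.67 in *Nanog* KO and 0.79 in control cells, and their median fall was 0.41 in each. *Ep300* and *Crebbp* encode the paralogous acetyltransferases p300 and CBP, which acetylate histone H3 at enhancers. *Ep300* read 165, 166 and 174 CPM at 0 h, 267, 262 and 271 CPM at 12 h and 222, 212 and 193 CPM at 24 h in *Nanog* KO cells, and 94.8 and 118 CPM, then 184, 185 and 187 CPM, then 144, 149 and 149 CPM in control cells. *Crebbp* read 36.0, 34.4 and 37.4 CPM, then 61.1, 65.2 and 63.3 CPM, then 46.8, 55.8 and 42.1 CPM in *Nanog* KO cells, and 37.5 and 48.4 CPM, then 69.2, 72.0 and 67.8 CPM, then 52.2, 50.5 and 57.2 CPM in control cells. The 12 h libraries were above the rest for both genes in both lines, and the fall left both above their 0 h mean. *Ep300* differed between the lines (0.66 ± 0.07, 0.52 ± 0.06 and 0.50 ± 0.06 at 0, 12 and 24 h, adjusted p = 3.0e-07, 1.8e-06 and 3.3e-06). It lies on chromosome 15, where the median difference between the lines over 588 tested genes was 0.41 to 0.44. *Crebbp* on chromosome 16 differed by -0.14 ± 0.09 at 12 h (adjusted p = 0.22).

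*Ep400* and *Srcap* encode the ATPases of the complexes that exchange histone H2A for the variant H2A.Z, and *Trrap* the scaffold that ties acetyltransferases to activators such as MYC. *Srcap* read 100, 101 and 99.7 CPM at 0 h, 163, 155 and 172 CPM at 12 h and 130, 131 and 109 CPM at 24 h in *Nanog* KO cells, and 122 and 131 CPM, then 216, 219 and 227 CPM, then 153, 148 and 160 CPM in control cells. All of its *Nanog* KO libraries were below the control libraries of the same time. At 12 h the difference was -0.43 ± 0.06 for *Srcap*, -0.34 ± 0.06 for *Ep400* and -0.27 ± 0.07 for *Trrap* (adjusted p = 9.7e-06, 0.00015 and 0.0034). *Setd1b*, a histone H3 lysine 4 methyltransferase, had the largest peak of the group, with 26.6, 28.0 and 30.2 CPM at 0 h, 57.4, 54.6 and 61.6 CPM at 12 h and 41.3, 42.2 and 34.996 CPM at 24 h in *Nanog* KO cells. The control gave 30.5 and 39.1 CPM, then 64.2, 66.4 and 62.9 CPM, then 42.2, 37.8 and 40.5 CPM, so that 0 h and 24 h overlapped. The other members were *Spen*, a corepressor needed for X inactivation, *Hexim1*, which holds the elongation kinase P-TEFb inactive, *Atf7ip*, a partner of the methyltransferase SETDB1, and *Phf3*, which binds RNA polymerase II, with peaks of 0.31 to 0.40.

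**Figure D4:**
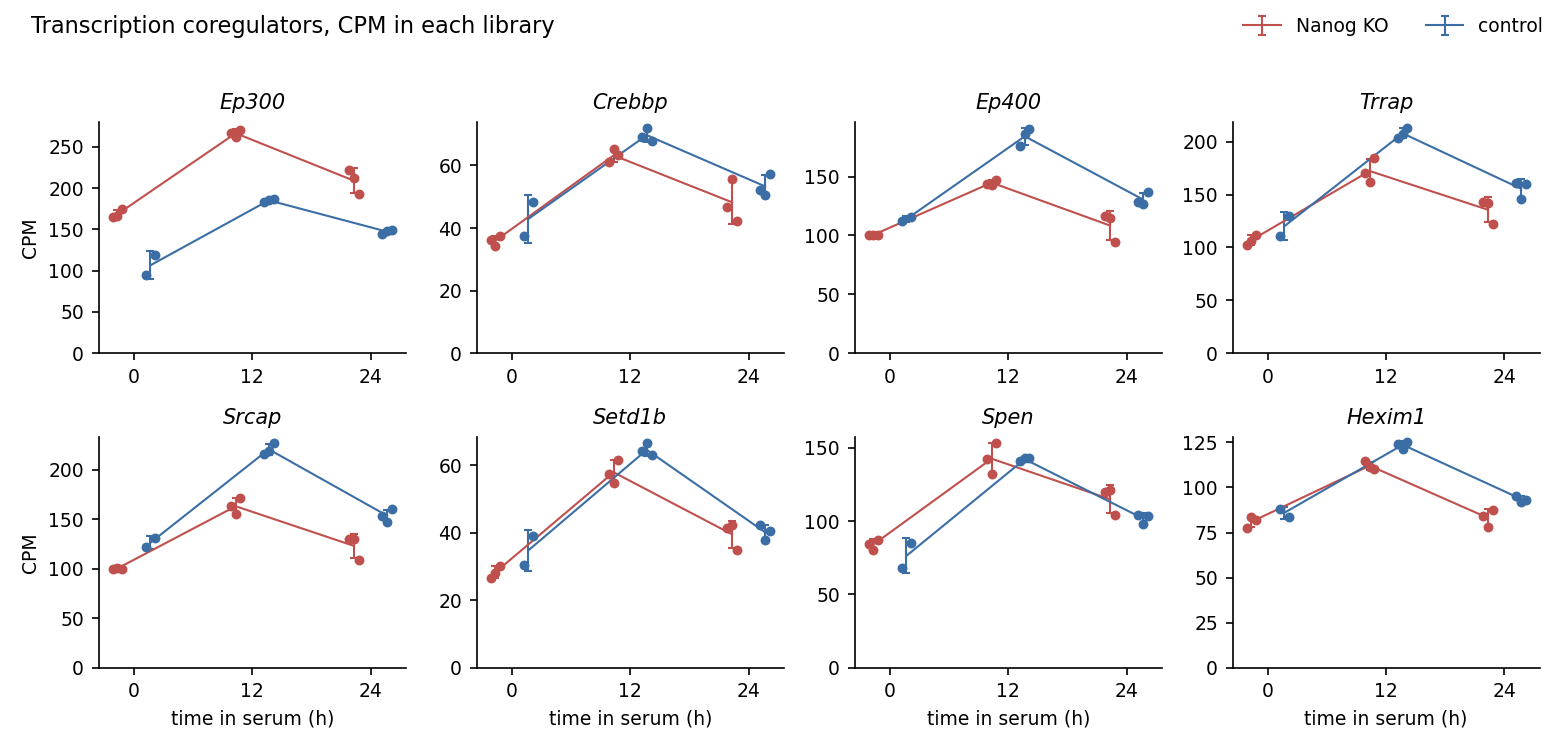
CPM by time in serum for 8 transcription coregulators, in *Nanog* KO (red) and control cells (blue). Points are libraries, lines join the group means and bars are the SD (n = 3, and n = 2 for the control at 0 h). All axes start at 0. Each gene is highest at 12 h in both lines, with *Ep300* above and *Ep400* and *Srcap* below the control at 12 h in *Nanog* KO cells.

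Most of the other subunits of these complexes missed the limits of the rule, and the share that was highest at 12 h varied between complexes. The complexes were listed because they hold members, so their counts are a description. Of 18 genes of the TIP60 and p400 complex *Ep400* and *Trrap* met the rule, and 7 were higher at 12 h than at both other times in both lines, against 13.8% of all tested genes. The acetyltransferase *Kat5* was at 36.1, 38.5 and 35.6 CPM in *Nanog* KO cells at 0, 12 and 24 h, and at 37.4, 38.4 and 37.9 CPM in control cells. Of 14 genes of the COMPASS family of H3 lysine 4 methyltransferases *Setd1b* met the rule, and 8 were highest at 12 h. The same 2 counts were 1 and 2 of 9 for the SRCAP complex, 1 and 3 of 19 for SAGA, and 1 and 2 of 6 around P-TEFb. They were 1 and 2 of 8 around *Spen* and the NCoR corepressors, and likewise 1 and 2 of 8 around SETDB1. In every complex the second count includes the members, which have this order by the rule. Even so it came to 22.2% for SRCAP and 15.8% for SAGA, near the 13.8% of all tested genes. *Kmt2d*, a catalytic subunit of the COMPASS family, rose more than *Setd1b* (by 1.43 in *Nanog* KO and 1.27 in control cells) but then fell by only 0.22 and 0.40, and *Kmt2a* rose by 1.05 and 1.14 and fell by 0.17 and 0.20. *Kmt2d* missed the rule on the way down in *Nanog* KO cells and *Kmt2a* in both lines. *Kmt2b* came close, with rises of 0.43 in each line and falls of 0.25 and 0.29.

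Most of the coregulators have long transcripts, and so do the members as a whole more often than other genes. The longest transcript was at least 8 kb in 13 of the 71 members with a length (18.3%), against 5.73% of tested genes with at least 5 CPM at 12 h in both lines. In the bin of 10 kb and over 9 of 254 genes were members (3.54%), and in the bin of 2 to 4 kb 29 of 4109 (0.706%). The balance of long and short transcripts also differed between libraries. It is the median deviation of 595 genes of at least 8 kb from their own mean minus that of 2638 genes under 2 kb (log2). The balance at 12 h was 0.043 to 0.051 in *Nanog* KO and 0.127 to 0.192 in the control, above every 0 h library (-0.257 to -0.053). At 24 h most libraries were near those of 12 h, except *Nanog* KO replicate 3 (-0.283) and control replicate 1 (-0.051), and at 0 h control replicate 2 was the lowest (-0.257).

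Without these 3 libraries, which were chosen after the data were seen, 83 genes met the rule, of which 56 were among the 73. Of the 13 long members 7 were kept, and *Herc2*, *Trrap*, *Spen*, *Crebbp*, *Ep300* and *Atf7ip* had peaks of 0.24 to 0.30, each under the limit. When each library was adjusted for the median deviation of genes of like length, 66 genes met the rule, 58 of them among the 73, and 3 of the 13 long members were kept (*Srcap*, *Setd1b* and *Cspg4*). The peak of *Setd1b* was then 0.48 against 0.54, and that of *Ep400* 0.24 against 0.41. In either setting all 73 genes were still highest at 12 h in both lines, with a peak above 0.2 in 72 and 71 of them. The part of the length balance in these pulses was not tested further. *Hexim1*, whose longest transcript is 3495 bases, had a peak of 0.41 without the 3 libraries and 0.42 with the adjustment. A like adjustment for GC content, given in the closing section, kept 53 of the 73, fewer than that for length.

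**Figure D5:**
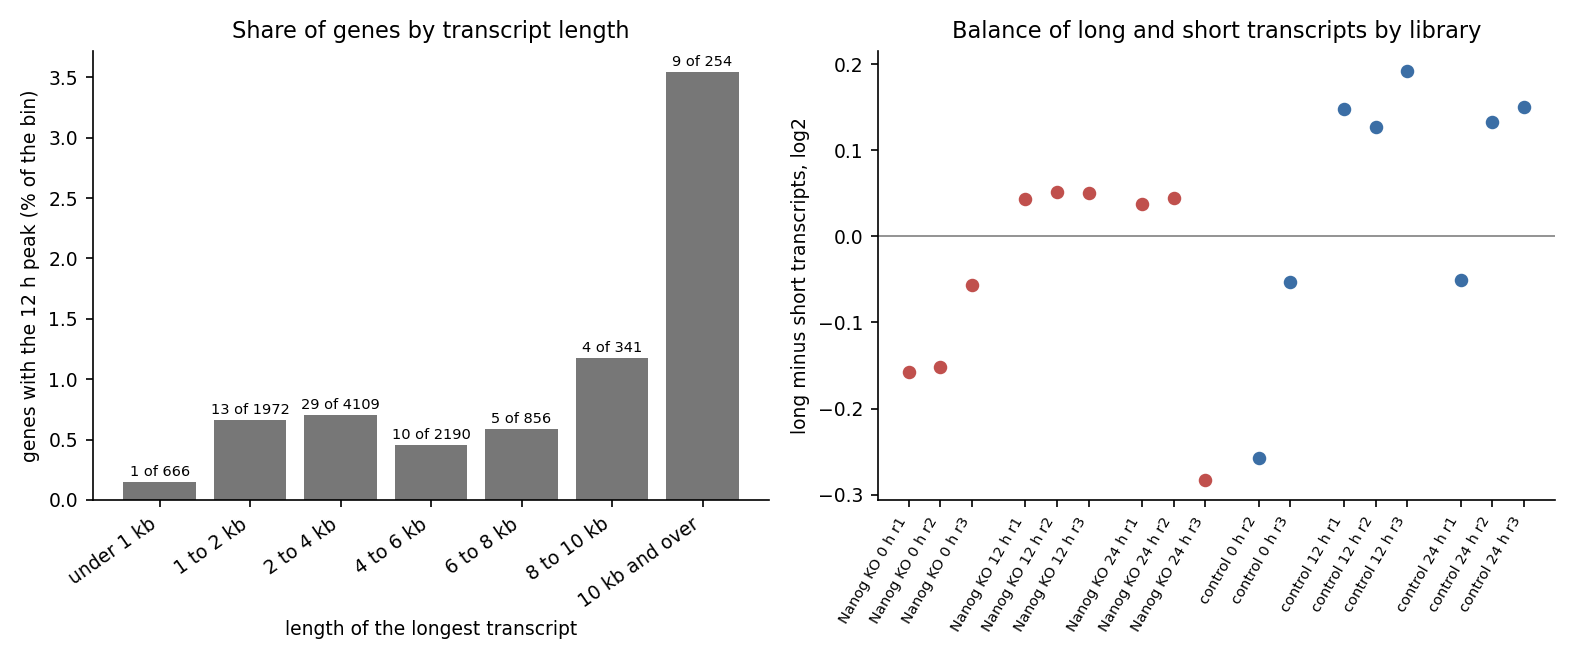
Left, the share of genes that peaked at 12 h in both lines by the length of the longest transcript, among tested genes with at least 5 CPM at 12 h in both lines, with the counts above the bars. The share is highest at 10 kb and over (3.54%). Right, the balance of long and short transcripts in each library (log2), in *Nanog* KO (red) and control cells (blue). *Nanog* KO 24 h replicate 3, control 0 h replicate 2 and control 24 h replicate 1 lie below the other libraries of their groups.

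Of the 6 signaling proteins inside the cell, *Rassf1*, a RAS association domain tumor suppressor, and *Dgka*, a kinase that turns diacylglycerol into phosphatidic acid, were above the control at 12 h, as was *Arf2*, while *Plk2* and *Dok1* were below it. *Rassf1* read 21.2, 22.7 and 23.2 CPM at 0 h, 52.8, 53.2 and 49.5 CPM at 12 h and 35.6, 33.6 and 47.8 CPM at 24 h in *Nanog* KO cells. The control libraries read 21.9 and 20.7 CPM, then 32.6, 28.9 and 33.1 CPM, then 21.7, 19.4 and 16.9 CPM. The lines overlapped at 0 h and not later, and at 24 h *Nanog* KO cells were higher by 0.97 ± 0.11 (adjusted p = 4.9e-07). *Dgka* began apart, at 75.6, 81.7 and 77.8 CPM in *Nanog* KO against 39.1 and 36.7 CPM in control cells, and the difference was 1.03 ± 0.07 at 0 h, 0.51 ± 0.06 at 12 h and 0.38 ± 0.06 at 24 h (adjusted p = 6.8e-10, 1.9e-06 and 5.5e-05). *Plk2*, a polo-like kinase that p53 induces, was below the control at 12 h (112, 113 and 112 CPM against 149, 137 and 132 CPM, -0.31 ± 0.05, adjusted p = 0.00012). *Dok1*, *Plekhg5* and *Arf2* had peaks of 0.40, 0.45 and 0.33.

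Between the lines the calls among the members went both ways. At 0 h 20 of the 73 were above and 13 below the control in *Nanog* KO, against 25.4% and 26.9% of all tested genes. At 12 h it was 17 and 21 (background 24.6% and 25.2%), and at 24 h 18 and 23 (background 23.4% and 24.5%). The median difference of the members was 0.04, -0.08 and -0.04 at the 3 times, and that of all tested genes -0.01, 0.00 and -0.01. At all 3 times 10 members were higher (*Adrb3*, *Dgka*, *Aox3*, *Robo4*, *Kank4*, *Rusc2*, *Gcm1*, *Ep300*, *Plac9b* and *Tmppe*) and 10 lower (*Mep1b*, *Sox21*, *Mmp9*, *Ep400*, *Srcap*, *Stat4*, *Ttc28*, *N4bp3*, *Wdr6* and *Plk2*), while 23 passed the test at none. The shares of all tested genes with these patterns over the 3 times were not counted, so nothing is read from these counts about the members. At 12 h the largest differences upward were those of *Gcm1* and *Robo4*, then *Rusc2* (0.92 ± 0.08, adjusted p = 1.3e-08), *Aox3* (0.76 ± 0.10, adjusted p = 3.1e-06) and *Plac9b* (0.76 ± 0.13, adjusted p = 7.5e-05). The largest downward were those of *Mep1b*, *Mmp9* and *Stat4*, then *Ttc28* (-0.86 ± 0.14, adjusted p = 4.6e-05) and *Sox21*. *Plac9b* has near-identical copies in the genome, so its reads cannot be placed with certainty.

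In 5 members the sign of the difference turned between times, with calls in both directions: *Cyp2b23*, *Ankrd45*, *Fam214a*, *Lmo7* and *Atf7ip* were first above the control and later below it. The share of all tested genes with such a turn was not counted. The calls above the control were at 0 h, where p-values may be too small. Their adjusted p was 0.040 for *Cyp2b23*, 0.041 for *Ankrd45*, 0.012 for *Fam214a* and 0.024 for *Atf7ip*. *Lmo7*, a LIM domain protein of cell junctions, read 28.0, 29.4 and 32.0 CPM at 0 h, 38.9, 38.0 and 41.2 CPM at 12 h and 32.0, 29.7 and 30.3 CPM at 24 h in *Nanog* KO cells. In the control it read 22.6 and 26.2 CPM, then 62.0, 55.7 and 62.5 CPM, then 45.6, 48.7 and 44.1 CPM. It was higher at 0 h by 0.28 ± 0.08 (adjusted p = 0.0057) and lower at 12 h by -0.60 ± 0.07 and at 24 h by -0.57 ± 0.07 (adjusted p = 1.0e-06 and 1.9e-06). Without control 0 h replicate 2 the first difference was 0.18, with an adjusted p of 0.12. *Ankrd45* was below the control at 12 h (-0.55 ± 0.09, adjusted p = 4.3e-05) and at 24 h (-0.40 ± 0.09, adjusted p = 0.00096).

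How far a gene had come back by 24 h is the comparison of 24 h with 0 h in each line. It is the rise minus the fall, from the same means that chose the genes. Over all tested genes the rise was more widely spread than the fall (quartiles -0.25 to 0.25 against -0.16 to 0.16 in *Nanog* KO and -0.25 to 0.24 against -0.16 to 0.18 in control cells), so a rule that asks for the same size of both favors genes that end above their start. Counts over the members are therefore a description, and nothing is read from them against the background. In *Nanog* KO cells 22 were higher and 7 lower at 24 h (background 28.8% and 29.5%), and in control cells 32 were higher and 4 lower (background 26.1% and 28.7%). The median change of the members was 0.12 and 0.20, against 0.00 and -0.01 over all tested genes. The count of 7 was 4 without *Nanog* KO 0 h replicate 3, and also 4 without *Nanog* KO 24 h replicate 3. In both lines 28 members passed the test in neither direction, among them *Hexim1*, *Gcm1* and *Wrap53*. That does not show that they were back at their start.

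In 14 members the 24 h level was called above 0 h in both lines. The share of all tested genes called alike in both lines was not counted, here or for the members without a call. Those counts are therefore a description. *Cyp2b23* kept 0.81 ± 0.11 in *Nanog* KO and 1.63 ± 0.13 in control cells (adjusted p = 8.2e-06 and 6.1e-09), and *Robo4* kept 0.30 ± 0.09 and 1.64 ± 0.10 (adjusted p = 0.0090 and 2.7e-10). *Serpina3m* kept 0.72 ± 0.14 and 0.73 ± 0.15 (adjusted p = 0.00019 and 0.00055) and *Cspg4* 0.56 ± 0.16 and 0.87 ± 0.18 (adjusted p = 0.0056 and 0.00044). *Fam160a2* kept 1.09 ± 0.11 (adjusted p = 1.4e-07) in *Nanog* KO cells and 0.32 ± 0.12 (adjusted p = 0.034) in control cells. The latter was 0.24 without control 0 h replicate 3 and 0.30 and 0.27 without control 24 h replicates 2 and 3, with adjusted p-values of 0.22, 0.086 and 0.11. Of the coregulators *Ep300* kept 0.31 ± 0.06 and 0.47 ± 0.07, *Srcap* 0.29 ± 0.06 and 0.28 ± 0.07, *Trrap* 0.34 ± 0.07 and 0.37 ± 0.08, and *Spen* 0.45 ± 0.07 and 0.42 ± 0.08 (adjusted p from 2.2e-05 to 0.0020). At 24 h the balance of long transcripts was above every 0 h library of the line in 2 of 3 *Nanog* KO libraries and in all 3 control libraries, in replicate 1 by little (-0.051 against -0.053), and its part in these calls was not tested.

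*Rusc2* and *Tnfrsf23* fell below their start in both lines. *Rusc2*, which encodes a protein of vesicle transport, read 61.3, 60.6 and 64.4 CPM at 0 h, 77.2, 78.3 and 82.4 CPM at 12 h and 38.7, 35.6 and 42.5 CPM at 24 h in *Nanog* KO cells, and 28.3 and 32.1 CPM, then 40.7, 41.3 and 42.2 CPM, then 25.2, 20.003 and 21.5 CPM in control cells. Its 24 h libraries were below its 0 h libraries in both lines (-0.66 ± 0.08 and -0.43 ± 0.09, adjusted p = 7.7e-07 and 0.00038). *Tnfrsf23*, a decoy receptor for TRAIL in the mouse, changed by -0.38 ± 0.15 and -0.64 ± 0.17 (adjusted p = 0.035 and 0.0030). The first was -0.22 without *Nanog* KO 0 h replicate 2, -0.37 without *Nanog* KO 0 h replicate 3 and -0.30 without *Nanog* KO 24 h replicate 3, with adjusted p-values of 0.22, 0.081 and 0.13.

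Other members ended on opposite sides of their start. *Dgka* ended below its start in *Nanog* KO and above it in control cells (-0.20 ± 0.06 and 0.44 ± 0.07, adjusted p = 0.0096 and 3.6e-05), and the first was -0.11 without *Nanog* KO 24 h replicate 2 (adjusted p = 0.078). *Atg2a*, a lipid transfer protein of autophagosome growth, changed by -0.36 ± 0.06 and 0.21 ± 0.07 (adjusted p = 4.6e-05 and 0.011), and the second was 0.19 without control 0 h replicate 2 (adjusted p = 0.073) and 0.14 without the 3 libraries that stood apart in length balance (adjusted p = 0.14). *Atf7ip* had the same signs, and *Plk2* the reverse, with 0.15 ± 0.05 in *Nanog* KO and -0.16 ± 0.06 in control cells (adjusted p = 0.028 and 0.037). Each *Plk2* call was lost without one of 3 libraries, namely *Nanog* KO 0 h replicate 1 and 24 h replicates 1 and 3 (0.11 to 0.14, adjusted p = 0.070 to 0.13) and control 0 h replicate 3 and 24 h replicates 2 and 3 (-0.15 to -0.090, adjusted p = 0.079 to 0.33).

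The members were spread over the genome, with 9 on chromosome 4, 8 each on chromosomes 7 and 9 and none on chromosomes 17 and X. Only *Prr14* and *Srcap*, both on the plus strand of chromosome 7, lay within 100000 bases of each other, with 35223 bases between them. Of the 71 members found in GENCODE M21, 69 were protein coding. Near-identical copies under another gene ID exist for 6 members (*Srcap*, *Plac9b*, *Tmem254c*, *Gm4617*, *Gm26880* and ENSMUSG00000101678). Those of *Srcap* (*Gm42715*) and ENSMUSG00000101678 (*Gtf3c2*) are genes that overlap them on the same strand, and not copies elsewhere. Another gene of the table overlaps 16 members. The reads of the members with near-identical copies cannot be placed with certainty. Overlap was taken over whole genes on either strand and exons were not compared, so its effect on the reads was not tested. *Gm4617*, a processed pseudogene with the largest peak of the set, has 3 such copies, the nearest of 98.2% identity. Its libraries read 0 to 2.13 CPM at 0 h, 13.8 to 20.6 CPM at 12 h and 0 to 5.35 CPM at 24 h in *Nanog* KO cells.

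At the limits of the rule the members ran on into other genes. Just inside were *Tmem254c* and *Plk2*, with peaks of 0.3016 and 0.3030, and just outside *Krt42*, *Qpctl* and *Pcnt*, with peaks of 0.2998, 0.2996 and 0.2988. With a limit of 0.2 in place of 0.3 there were 238 genes, and with 0.5 there were 10. When each library was left out in turn, 67 to 80 genes met the rule, and 33 of the 73 were kept in all 17 cases. *Mep1b*, *Serpina3m*, *Adrb3*, *Prr14*, *Sox21*, *Cyp2b23*, *Mmp9*, *Robo4*, *Setd1b* and *Srcap* were among these 33.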

How the data were processed

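RNA-seq libraries of *Nanog* KO (BT12) and control (E14Tg2a) ES cells at 0, 12 and 24 h were analyzed, 17 in all, grouped by the labels. The authors trimmed adapters (cutadapt 1.3), mapped single reads to Ensembl transcripts of GRCm38 and summed them per gene with RSEM (1.2.3 in the submitters' processing notes, which also name CASAVA 1.8.2, and a different version in the methods). The deposited values are a signal: gene reads over a library size that the authors scaled by TMM, here called CPM. Dividing each library by the worth of 1 read gave whole reads for 100% of values (tolerance 0.001 reads), so the ComBat correction that the methods name was taken not to be in them. Genes needed 1 CPM in at least 3 libraries, which 353 rows did not have.

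Tests were two-sided and used limma 3.58.1 (R 4.3.3). The values, as log2(CPM + 1), were fitted for all 17 libraries with 1 coefficient per line and time and a mean-variance trend, with a call at an adjusted p under 0.05. Fold changes of low genes are understated on this scale. Alternatives were edgeR 4.0.16 and DESeq2 1.42.0 on the recovered reads and the settings named in the closing section. In reads simulated for 15117 genes, *Nanog* KO against control at 12 h, 89% of 100 genes changed by 0.5 (log2) and 100% of 100 changed by 1 were called. Of the unchanged genes 10 were called. The changed genes had a mean of at least 5 CPM, and all genes and libraries were given the same spread beyond counting error. The real libraries differ in spread, so this checks the code and does not give the sensitivity in these data. Lengths and coordinates are those of GENCODE M21, matched by gene ID. Copies were called near-identical at 95% identity over 50% of the transcript. The members, the gene lists, the motifs and the role groups were chosen with earlier results of these data known. Genes named are the 15 members with the largest peak, the 10 with the highest CPM at 12 h, up to 4 of each list, the 5 highest and 5 lowest between lines at 12 h, the 5 highest and 5 lowest at 24 h against 0 h in both lines, and 3 on either side of the limit, predicted names left out. Others are named as examples of a group and were chosen after their values were seen. Of the members, 2 are counted but not reported singly here.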

Additional observations from a re-analysis of the deposited data

Results flagged for a closer look

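In 19 of the 73 members the change from 0 to 24 h differed between the lines by a test of that difference itself (limma interaction, adjusted over the 15117 tested genes). It was higher in *Nanog* KO cells in 7 and lower in 12, against 15.5% and 14.3% of all tested genes. As the means that chose the genes enter it, these counts are a description. Groups held 2 or 3 libraries, too few to look for single libraries far from the rest. The change in *Nanog* KO minus that in control cells was -1.34 for *Robo4* (adjusted p = 1.0e-06), -1.047 for *Mep1b* (adjusted p = 0.00028), -0.85 for *Lmo7* (adjusted p = 8.1e-06), -0.821 for *Cyp2b23* (adjusted p = 0.0014), -0.645 for *Dgka* (adjusted p = 5.0e-05) and -0.57 for *Atg2a* (adjusted p = 9.1e-05). It was 0.9 for *Rassf1* (adjusted p = 0.00032), 0.873 for *Procr* (adjusted p = 0.0014), 0.765 for *Fam160a2* (adjusted p = 0.0018), 0.562 for *Hspg2* (adjusted p = 0.0012) and 0.301 for *Plk2* (adjusted p = 0.0091). The others were lower for *Ankrd45* (-0.651, adjusted p = 0.0011), *Atf7ip* (-0.646, adjusted p = 6.2e-05), *Fam214a* (-0.635, adjusted p = 0.0035), *Apcdd1* (-0.594, adjusted p = 0.0087), *Casz1* (-0.512, adjusted p = 0.035) and *Pramef8* (-0.419, adjusted p = 0.011), and higher for *Serpinb9* (0.53, adjusted p = 0.045) and *Arf2* (0.392, adjusted p = 0.0052).

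*Lmo7* stayed above its start in control cells only (0.89 ± 0.08, adjusted p = 2.5e-08, against 0.04 ± 0.07, adjusted p = 0.62), and *Rassf1* and *Procr*, the endothelial receptor of protein C, in *Nanog* KO cells only. *Rassf1* changed by 0.76 ± 0.11 and -0.14 ± 0.12 (adjusted p = 7.2e-06 and 0.33) and *Procr* by 0.78 ± 0.12 and -0.09 ± 0.14 (adjusted p = 2.5e-05 and 0.60). *Hspg2* ended below its start in control cells (-0.39 ± 0.09, adjusted p = 0.00084) and changed by 0.17 ± 0.08 in *Nanog* KO cells (adjusted p = 0.061). Without *Nanog* KO 24 h replicate 3 the latter was 0.26 (adjusted p = 0.0048), and without control 0 h replicate 2 or 3 it was 0.17 (adjusted p = 0.050). *Mep1b* ended above its start in control cells (0.82 ± 0.14, adjusted p = 5.7e-05) and changed by -0.23 ± 0.12 in *Nanog* KO cells (adjusted p = 0.11), or by -0.33 without *Nanog* KO 24 h replicate 1 (adjusted p = 0.038).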

How the results depend on the processing

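The number of genes that peaked at 12 h in both lines was 238 with a limit of 0.2 and 10 with 0.5, and 67 to 80 when libraries were left out in turn. It was 88 with 0.1 CPM added in place of 1, 71 with median-ratio scaling and 75 with means of logs, of which 73, 71 and 72 were among the 73. Adjustment for transcript GC content, added after the data were seen, gave 64, with 53 among the 73. Among those not kept were *Rusc2*, *Atg2a*, *Wdr6*, *Spen*, *Zfp64* and *Zfp296*. Over 10388 genes the fall in control cells went more with GC content (Pearson's r of 0.344) than with log2 length (0.116). For the fall in *Nanog* KO cells the 2 were alike (0.143 and 0.146), and for the rise in control cells length was the larger (-0.033 and 0.119). The part of GC content in the pulses was not tested further. The members lower at 24 h than at 0 h in *Nanog* KO cells numbered 4 to 9 when libraries were left out. The other counts of members called were within 1.5 times of those given under each setting tried (limma without its trend, without the filter, with only the groups compared or with 0.1 CPM, median-ratio scaling, edgeR, DESeq2, and without the 3 libraries that stood apart). Of 1976 values of the 76 single-gene tests under these settings and with libraries left out, 1943 kept direction and call, 26 lost the call, 7 gained it and none turned. In 66 of the 76 tests nothing changed. The cause was not tested. With control 0 h at 2 libraries, calls at that time rest on a spread shared with the other groups. Where a control 0 h replicate was left out, alone or with others, a single library stood for that group. It gave no spread of its own, so p-values under those settings say little about control 0 h.

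Replicate numbers did not pair the libraries (correlations of same-numbered deviations -0.19 to 0.079). With the replicate block, members higher and lower numbered 20 and 12, 17 and 21, and 19 and 24 between the lines at 0, 12 and 24 h, 21 and 6 for 24 h against 0 h in *Nanog* KO, and 30 and 4 in control cells.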
